A study of Mus musculus with 12 samples.

Results

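The genes of cholesterol synthesis, regulation, uptake, efflux and turnover were examined in the medial prefrontal cortex of adult mice born to mothers whose immune system had been activated in late pregnancy. The rule named 35 genes, and each was represented by its brightest probe set among those annotated to a single gene, brightness being the mean over all 12 animals. Such a probe set existed for 32 of the 35, out of 18820 genes so represented on the array: 16 of 17 synthesis genes, 5 of 5 regulators and 11 of 13 genes of transport and turnover. Acat2, Soat1 and Nr1h2 had no such probe set and were not analysed here. The study comprised 6 control and 6 poly(I:C) offspring, each hybridised to its own Affymetrix array of the Mouse Gene ST design. All were C57BL/6N mice aged 12 weeks. The mothers of the poly(I:C) group had received 5 mg/kg of poly(I:C), a man-made mimic of viral double-stranded RNA, intravenously on gestation day 17, and control mothers an intravenous injection of saline instead. Behavioral and cognitive tests in adulthood preceded the dissection in both groups. The labels name no litter, sex or array strip, so some animals may share a mother, and the p-values reflect only the variation among the 12 animals as sampled.

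Brain cholesterol is made locally, because lipoproteins of the blood do not cross the blood-brain barrier. Acetyl-CoA is built up through mevalonate to farnesyl diphosphate, which is joined to squalene, cyclised to lanosterol and trimmed to cholesterol. Transcription of these enzymes is driven mainly by the product of Srebf2, which Scap escorts to the Golgi for activation and which the Insig proteins hold back when sterols are plentiful. Oligodendrocytes draw on the pathway for myelin, astrocytes package sterol on ApoE particles for delivery to neurons, and neurons remove excess by hydroxylating it with Cyp46a1.

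Values are log2 expression per probe set as deposited, so a difference of 1 corresponds to a 2-fold ratio. Differences are poly(I:C) minus control with moderated standard errors (SE) from limma, and a gene passed at a Benjamini-Hochberg adjusted p under 0.05 over 23099 probe sets. Array medians lay between 5.15 and 5.21, and the correlation of any 2 arrays over genes (not independent replicates) was 0.994 to 0.998. The 7 measured neuronal markers and the 3 measured markers of the cortex (Slc17a7, Tbr1 and Cux2) lay above 5.18, the median of the table, and their list means in controls ran from 10.66 to 10.72 and from 9.23 to 9.45. The 7 measured markers of the striatum, a neighbouring region, also lay above that median, so these levels do not show that the dissection held cortex alone. The striatal list mean varied more between controls, from 6.54 to 7.39, and ran from 6.49 to 6.75 after poly(I:C).

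None of the 32 sterol genes passed the test in limma, where 2.83% of all probe sets passed. An unadjusted p under 0.05 was reached by 5 of the 32 members (15.6%) and by 19.1% of all probe sets. The means of 17 members were higher after poly(I:C) and those of 15 were lower. Their median difference was 0.0058 and their median absolute difference 0.040, beside 0.0030 and 0.044 over all probe sets. The 95% interval of every member's difference lay between -0.26 and 0.26, which is within 1.20-fold either way. The members with the lowest adjusted p were Srebf1, Apoe and Mvd, each with a lower mean after poly(I:C).

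**Figure D1:**
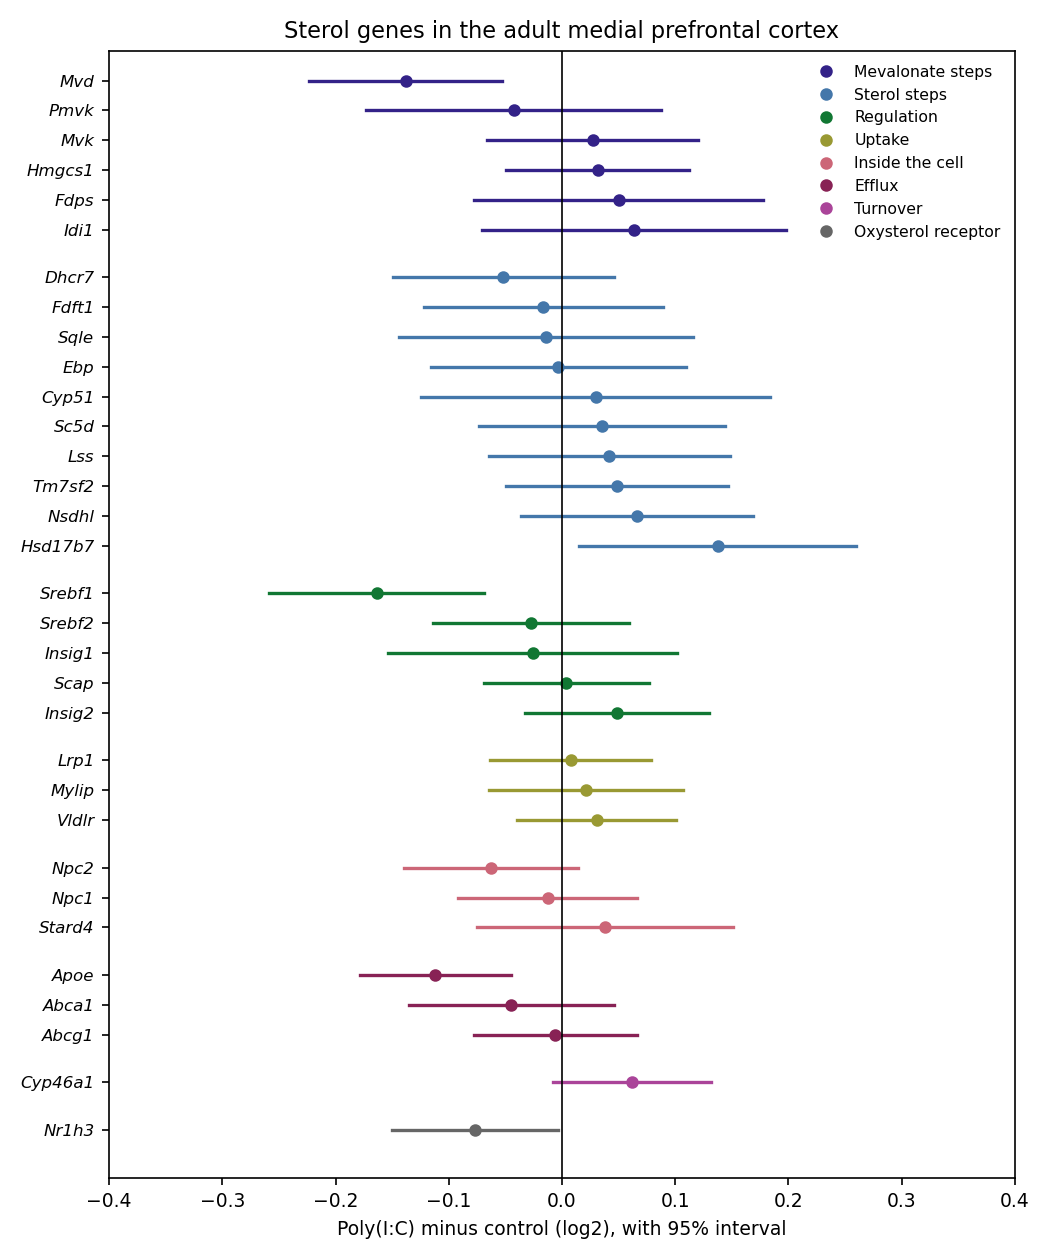
Difference between poly(I:C) and control offspring (x axis, log2) for each of the 32 sterol genes (y axis, grouped and coloured by role), as the limma estimate (point) with its 95% interval (line). All intervals lie between -0.26 and 0.26; those of Mvd, Srebf1, Apoe and Nr1h3 lie wholly below 0 and that of Hsd17b7 wholly above it, and no gene passed after adjustment.

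The mevalonate steps were represented by 6 genes, with differences from -0.14 to 0.064. Mvd, the decarboxylase that forms isopentenyl diphosphate, had the lowest adjusted p of the synthesis genes. It ran from 6.37 through a median of 6.53 to 6.62 in controls and from 6.30 through 6.40 to 6.45 after poly(I:C). All 6 poly(I:C) animals lay below the control mean, but the groups overlapped because control 4, at 6.37, was below 4 of them. The difference was -0.14 ± 0.04 (SE), with an interval from -0.22 to -0.053 (limma adjusted p = 0.071). Without control 4 the difference was -0.17 and passed (limma adjusted p = 0.0211). That was 1 of 22 alternatives. In the others it did not pass, with a limma adjusted p of up to 0.18 (without controls 5 and 6 together). The other 5 genes were farther from the threshold. Hmgcs1, which condenses acetoacetyl-CoA with acetyl-CoA, differed by 0.032 ± 0.038. The kinases Mvk and Pmvk differed by 0.027 ± 0.044 and -0.043 ± 0.062, the isomerase Idi1 by 0.064 ± 0.064 and the prenyl synthase Fdps by 0.050 ± 0.060. A second probe set of Idi1 gave 0.053 ± 0.061.

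Between squalene and cholesterol, the 10 genes measured differed by -0.052 to 0.14. Hsd17b7, a ketoreductase of sterol demethylation, had the lowest p of them. Its controls lay between 7.31 and 7.55 with a median of 7.43, and its poly(I:C) animals between 7.43 and 7.76 with a median of 7.52. Poly(I:C) 3 and 5 stood highest, at 7.72 and 7.76, and the other 4 were within the range of the controls. The difference was 0.14 ± 0.06 (SE; interval 0.015 to 0.26; limma adjusted p = 0.20). At the other end was Dhcr7, the last reductase of the pathway, at -0.052 ± 0.046. Squalene synthase, Fdft1, differed by -0.017 ± 0.050, squalene epoxidase, Sqle, by -0.014 ± 0.061, and the cyclase Lss by 0.042 ± 0.050. Of the enzymes that trim lanosterol, the demethylase Cyp51 differed by 0.030 ± 0.073, the reductase Tm7sf2 by 0.048 ± 0.046, the dehydrogenase Nsdhl by 0.066 ± 0.048, the isomerase Ebp by -0.0033 ± 0.053 and the desaturase Sc5d by 0.035 ± 0.051.

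Of the 16 synthesis genes, 10 had a higher and 6 a lower mean after poly(I:C), with a median difference of 0.031. That median was 0.0010 after quantile normalization and 0.020 after centring each array on its median, while the median of all probe sets moved from 0.0030 to -0.0098 and -0.0073. The mean over the 16 genes was 7.32 ± 0.07 in controls (SD, n = 6) and 7.34 ± 0.07 in poly(I:C) offspring (SD, n = 6), on the log2 scale. It ranged from 7.22 to 7.39 in controls and from 7.26 to 7.43 after poly(I:C), so the groups overlapped over most of their range.

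Among the 5 regulators, Srebf1, which encodes the form of the factor that mainly serves fatty acid synthesis, had the lowest adjusted p of all members. Controls lay between 6.48 and 6.64 with a median of 6.53, and poly(I:C) animals between 6.24 and 6.53 with a median of 6.36. Of the 6 poly(I:C) animals 5 lay below the lowest control, and poly(I:C) 6 lay inside the range of the controls. The difference was -0.16 ± 0.04 (SE), a control over poly(I:C) ratio of 1.12, with an interval from -0.26 to -0.069 (limma adjusted p = 0.059). It passed in limma without poly(I:C) 5 (adjusted p = 0.0475) and without poly(I:C) 6 (0.0295). It also passed after quantile normalization (0.0343), after median centring (0.0478), with array weights (0.0457) and among the brighter probe sets, those at or above the 50th percentile (0.0455). These were 6 of the 22 alternatives. In the others it did not pass, with a limma adjusted p of up to 0.13 (without control 2). Srebf2 differed by -0.027 ± 0.041, with an interval from -0.11 to 0.059. The retention factors Insig1 and Insig2 differed by -0.026 ± 0.060 and 0.049 ± 0.039. Scap stood at 0.0038 ± 0.034, and at -0.067 ± 0.043 on its second, dimmer probe set.

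With group means removed, Srebf1 tended to be higher in animals with higher myelin markers, more clearly by rank than by Pearson r. In bulk tissue, fewer cells of a type and less RNA per cell cannot be told apart. Each of the 10 myelin markers averaged lower in poly(I:C) offspring and 5 passed, beside 0.805% of all probe sets called lower. The median difference of the myelin list was -0.34. The 7 striatal markers averaged lower too, with a median difference of -0.27 and 1 passing, and of 6 markers of oligodendrocyte precursors 5 averaged lower (median -0.056) while 1 passed as higher. The mean of the myelin markers ran from 7.52 to 7.92 in controls and from 7.09 to 7.62 after poly(I:C), and the dimmest of them, Opalin, averaged 6.51. After the group means had been removed, Srebf1 correlated with the mean of the myelin markers at r = 0.77 (permutation p = 0.013, adjusted over 5 members 0.064) and rho = 0.85 (permutation p = 0.0037, adjusted 0.019) over 12 animals. Without the 2 animals farthest from the median of the myelin mean, r was 0.89. Within the 6 poly(I:C) animals r was 0.84 (exact permutation p = 0.036) and within the 6 controls 0.56 (exact permutation p = 0.22). The other 4 members with an unadjusted p under 0.05 gave r = 0.16 for Mvd, 0.31 for Hsd17b7, 0.20 for Apoe and 0.46 for Nr1h3 (permutation p = 0.59, 0.41, 0.50 and 0.14). Their rho was 0.16, 0.23, 0.22 and 0.35 (permutation p = 0.63, 0.53, 0.48 and 0.29). The relation of Srebf1 to the other marker lists is not reported here. Whether myelin or striatal tissue has a part in the difference of Srebf1 was not tested.

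**Figure D2:**
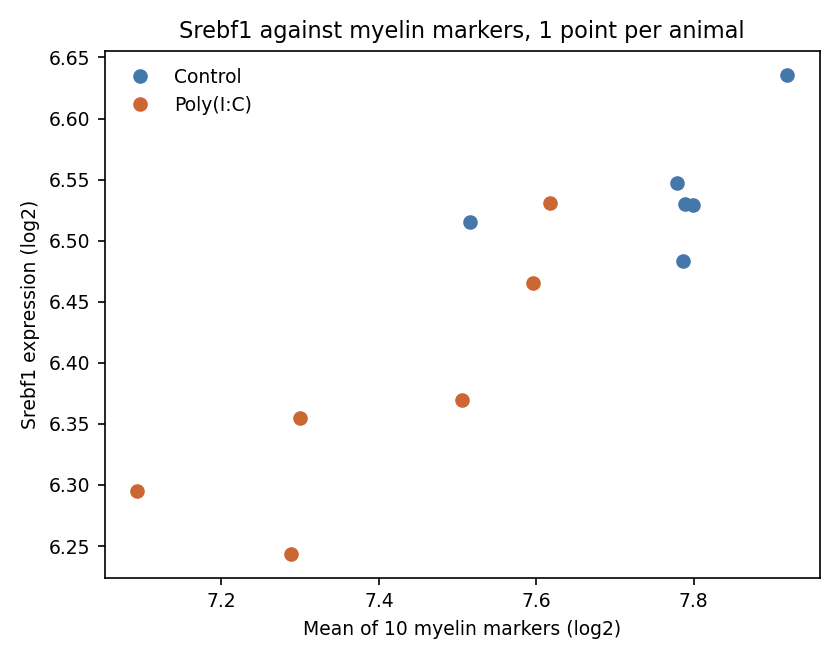
Expression of Srebf1 (y axis, log2) against the mean of 10 myelin markers (x axis, log2), with 1 point for each of the 6 control and 6 poly(I:C) animals. Poly(I:C) 2 and 4 are the lowest in Srebf1, and control 2 is the highest in both measures; r was 0.84 within poly(I:C) animals and 0.56 within controls.

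The 3 genes of uptake differed by 0.0077 to 0.031. Vldlr, a lipoprotein receptor that also serves reelin signalling, had the lowest p of the 3. It ran from 7.42 through a median of 7.51 to 7.59 in controls and from 7.48 through 7.54 to 7.60 after poly(I:C), and the groups overlapped almost throughout. The difference was 0.031 ± 0.033 (SE; interval -0.040 to 0.10; limma adjusted p = 0.66). Lrp1, a large endocytic receptor for ApoE particles, differed by 0.0077 ± 0.034, and Mylip, the ligase that marks lipoprotein receptors for degradation, by 0.021 ± 0.041.

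Inside the cell, sterol leaves the lysosome through Npc2 and Npc1 and is carried between membranes by Stard4. Npc2 lay between 7.30 and 7.39 in controls (median 7.34) and between 7.14 and 7.35 after poly(I:C) (median 7.31). Poly(I:C) 1 and 2, at 7.14 and 7.25, were below all controls and the other 4 were within their range. The difference was -0.063 ± 0.036 (SE; interval -0.14 to 0.014; limma adjusted p = 0.36). Npc1 differed by -0.013 ± 0.037 and Stard4 by 0.038 ± 0.054.

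Of the efflux genes, Apoe, the main apolipoprotein of the brain, was the only one of the 32 members whose groups did not overlap, as in 2.37% of all probe sets. Controls ran from 10.94 through a median of 10.99 to 11.09 and poly(I:C) animals from 10.86 through 10.91 to 10.93. The difference was -0.11 ± 0.03 (SE), a control over poly(I:C) ratio of 1.08, with an interval from -0.18 to -0.045 (limma adjusted p = 0.065). It passed in limma without control 4 (adjusted p = 0.0490), among the brighter probe sets (0.0461) and with a trended, robust prior (0.0197). These were 3 of the 22 alternatives. In the others it did not pass, with a limma adjusted p of up to 0.13 (without control 2). The transporters that load sterol onto such particles, Abca1 and Abcg1, differed by -0.045 ± 0.043 and -0.0057 ± 0.034. Apoe is expressed by astrocytes and microglia, whose markers were measured beside it. Of 10 astrocyte markers 6 and of 9 microglial markers 7 averaged lower in poly(I:C) offspring, with median differences of -0.0071 and -0.025, and none passed. Astrocyte list means ran from 8.43 to 8.57 in controls and from 8.42 to 8.54 after poly(I:C), and microglial list means from 6.62 to 6.73 and from 6.59 to 6.74. The part of these cells in the difference of Apoe was not tested.

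Turnover was represented by Cyp46a1, the neuronal cholesterol hydroxylase. It ran from 9.37 through a median of 9.45 to 9.51 in controls and from 9.46 through 9.49 to 9.56 after poly(I:C). All 6 poly(I:C) animals lay above the control mean, and 4 of them lay within the range of the controls, so the groups overlapped. The difference was 0.062 ± 0.033 (SE; interval -0.0076 to 0.13; limma adjusted p = 0.32). Nr1h3, the oxysterol receptor that switches on efflux genes, was the dimmest member, with a mean of 4.97. It lay between 4.94 and 5.09 in controls (median 5.00) and between 4.89 and 5.02 after poly(I:C) (median 4.93), and 4 poly(I:C) animals were below the lowest control. The difference was -0.077 ± 0.035 (SE; interval -0.15 to -0.0034; limma adjusted p = 0.24).

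**Figure D3:**
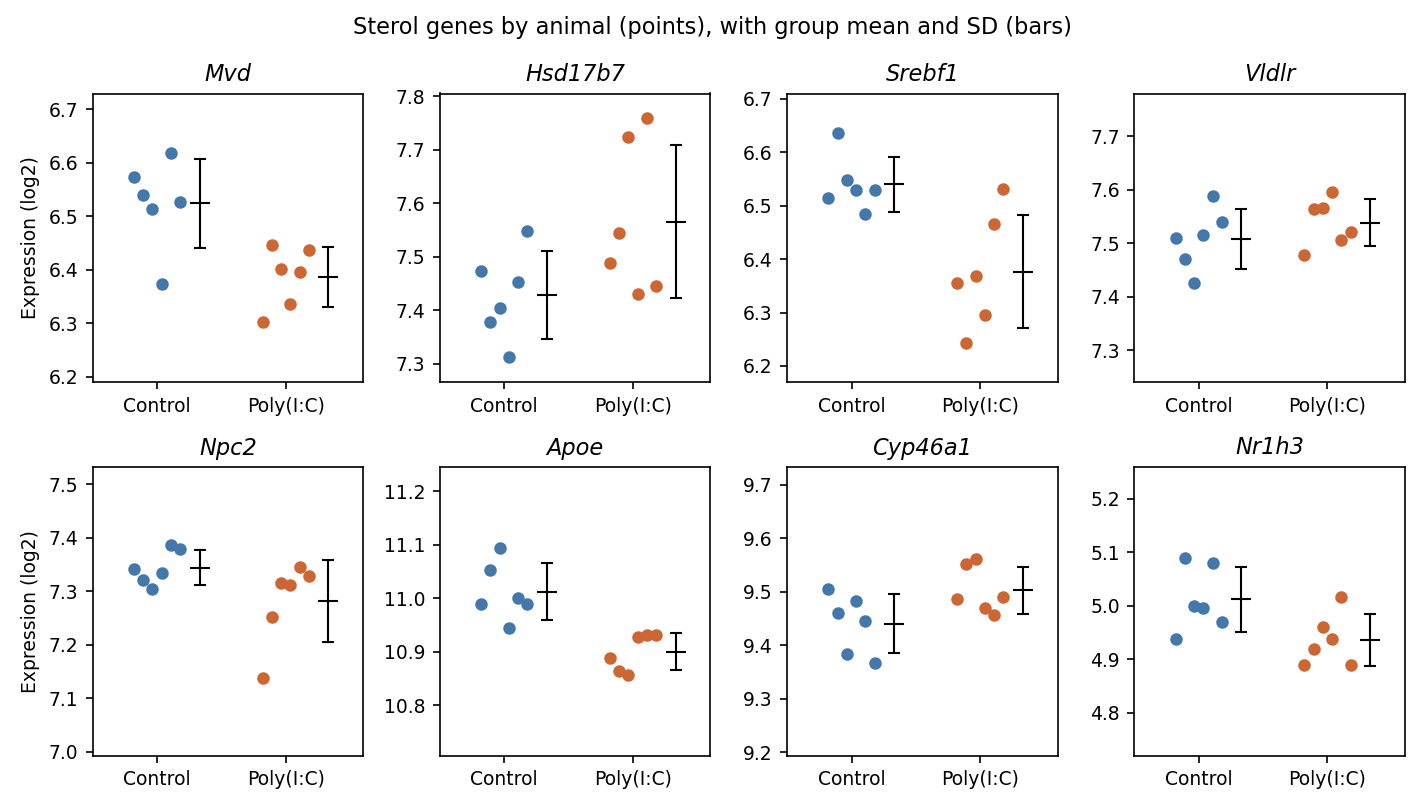
Expression (y axis, log2, every panel spanning the same range) of 8 sterol genes in each of the 6 control and 6 poly(I:C) animals (points), with the group mean and SD (bars). Apoe is the only gene without overlap between groups (lowest control 10.94, highest poly(I:C) animal 10.93), and the 2 high values of Hsd17b7 belong to poly(I:C) 3 and 5.

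Of 39 further genes of sterol and fatty acid metabolism, 36 had a single-gene probe set and 1 passed, beside 2.83% of all probe sets. Their median difference was 0.015, and 21 had a higher and 15 a lower mean. The gene that passed was Abca7, a lipid transporter of the ABC family, which ran from 6.05 through a median of 6.17 to 6.21 in controls and from 6.21 through 6.28 to 6.34 after poly(I:C), without overlap. It rose by 0.14 ± 0.04 (SE; 1.11-fold; limma adjusted p = 0.041). Probe sets called higher made up 2.02% of the 23099 tested. The call was kept when control 5 or animal 2 or 3 of the poly(I:C) group was left out, and was lost without any of the other 9 animals (limma adjusted p from 0.0535 without control 6 to 0.0879 without poly(I:C) 4). It was also lost after quantile normalization (0.064) and median centring (0.075), with the replicate number as a block, with every row tested and without moderation. In all, Abca7 lost its call in 14 of the 22 alternatives. Rxra, the partner of the oxysterol receptors, ran from 6.73 through a median of 6.79 to 6.87 in controls and from 6.59 through 6.69 to 6.72 after poly(I:C), again without overlap. The difference was -0.12 ± 0.04 (SE; limma adjusted p = 0.065), and it passed after quantile normalization (0.0371) and among the brighter probe sets (0.0479). In the rest of the 22 alternatives Rxra did not pass (limma adjusted p up to 0.14). Abca7 and Rxra were the 2 of the 36 genes whose groups did not overlap, beside 2.37% of all probe sets. Apod, a lipocalin made by oligodendrocytes and astrocytes, ran from 8.41 through 8.63 to 8.83 in controls and from 8.30 through 8.42 to 8.55 after poly(I:C). Of its 6 poly(I:C) animals 3 lay below the lowest control, so the groups overlapped. The difference was -0.20 ± 0.06 (SE; limma adjusted p = 0.077), and it passed without control 6 (0.0309). Apod passed in 2 of the 22 alternatives, and its limma adjusted p reached 0.17 in the others.

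Although the group means were close, the synthesis genes varied together among animals of the same group. With the group means removed, the median Pearson r over the 120 pairs of synthesis genes was 0.40 across 12 animals (median rho 0.36), 107 pairs were above 0 and 47 above 0.5. The same median was 0.033 over the 55 pairs of transport genes and 0.012 over all pairs of 18820 genes. Over all pairs of the 7384 genes whose means lay within the range of the synthesis genes it was 0.064. Of the pairs of the 18820 genes 51.3% were above 0, and of those of the 7384 genes 56.7%. The median of the synthesis genes was 0.55 within controls and 0.34 within poly(I:C) animals (n = 6 each). Of the 120 pairs 108 were above 0 within controls and 83 within poly(I:C) animals. The difference between the groups was not tested. These values are descriptions, since all pairs share the same 12 arrays. Leaving out 1 animal gave 0.35 without control 4 to 0.44 without poly(I:C) 6. Without both control 4 and poly(I:C) 5, the animals farthest from the median in the synthesis mean, it was 0.25.

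**Figure D4:**
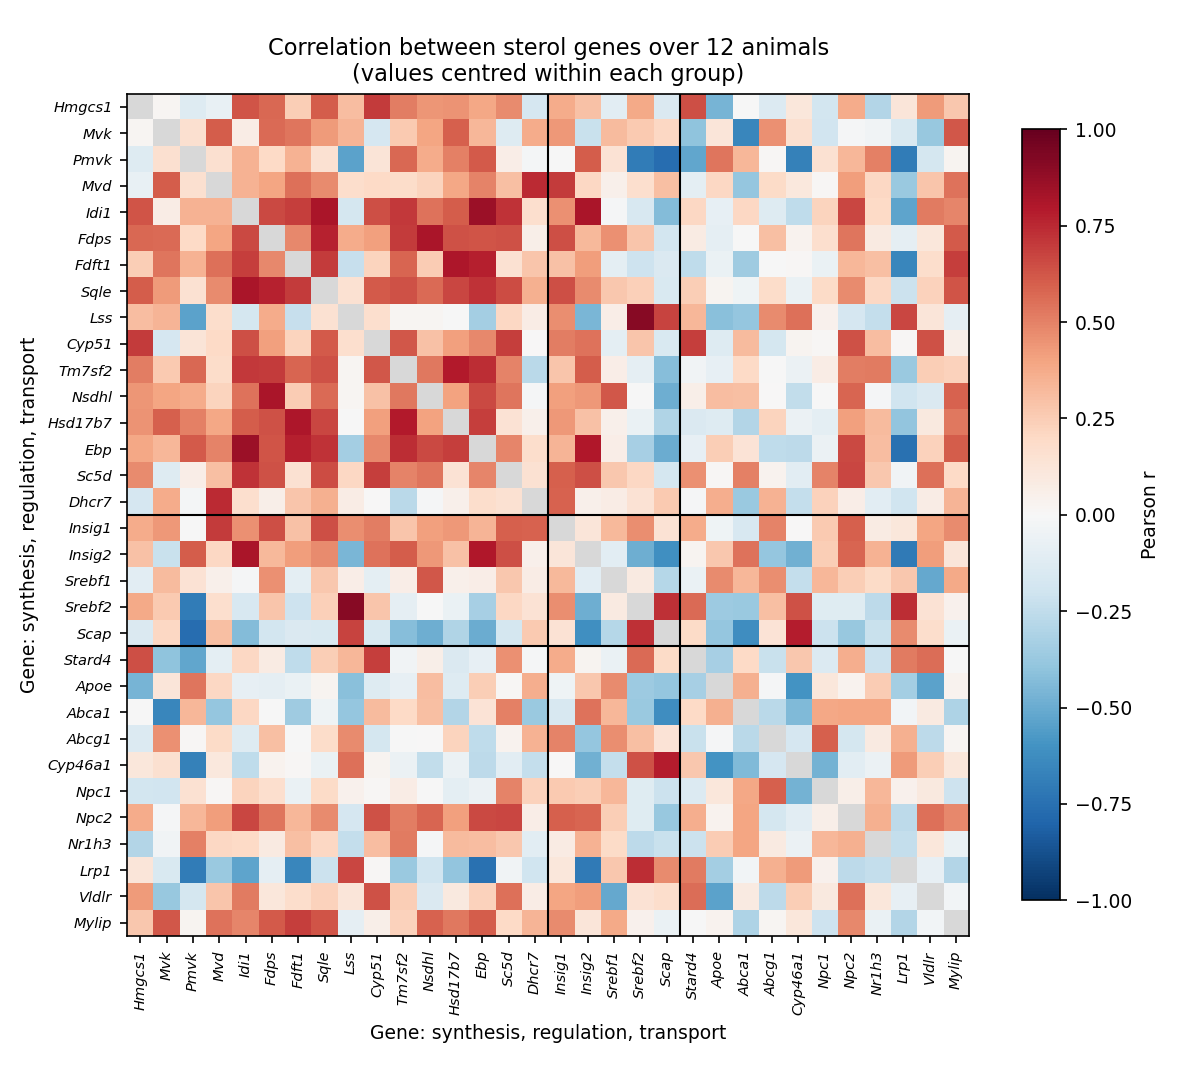
Pearson r (colour) between each pair of the 32 sterol genes over 12 animals after removal of the group means, with genes ordered as synthesis, regulation and transport (black lines) on both axes. The block of synthesis genes is mostly positive (107 of 120 pairs), with Lss and Dhcr7 as its palest lines, and the block of transport genes is mixed (29 of 55 pairs above 0).

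The core of the pattern was formed by Idi1, Sqle and Ebp, whose median r with the other 15 synthesis genes was 0.63, 0.61 and 0.61. The closest pair was Idi1 and Ebp (r = 0.86), followed by Fdps and Nsdhl and by Idi1 and Sqle (both 0.82). Lss and Dhcr7 had the lowest medians, 0.072 each, although Dhcr7 correlated with Mvd at 0.75. Pmvk and Lss had the lowest r of all pairs (-0.53). Outside synthesis, Mylip, Npc2, Insig1 and Insig2 had median r values of 0.51, 0.45, 0.45 and 0.42 with the 16 synthesis genes. Insig1 is itself a target of the sterol-regulated factors. For Srebf2 the median was 0.16, with Lss as its closest partner (0.91), for Srebf1 0.069, for Scap -0.16 and for Lrp1 -0.21. These genes were picked out after their values had been seen.

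**Figure D5:**
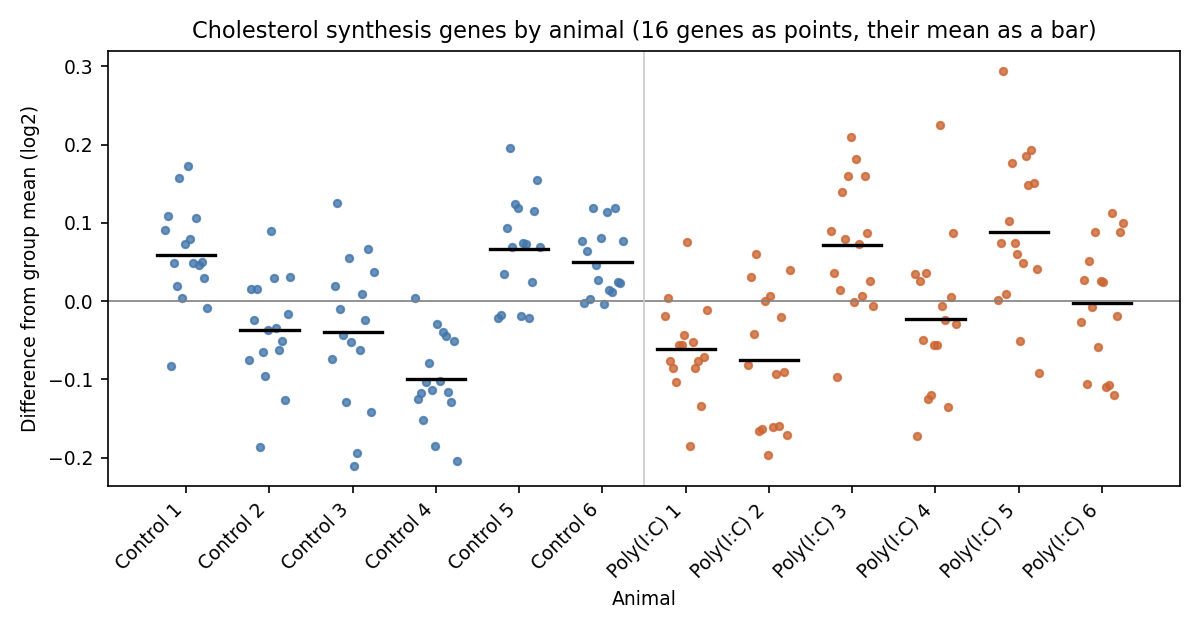
Difference of each of the 16 synthesis genes from its group mean (points, log2) in each animal (x axis), with the mean over the genes (black bar). Control 4 has 1 gene above its group mean and control 1, control 6 and poly(I:C) 5 have 14 each.

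Some animals were high or low in most synthesis genes and others were mixed. Control 4 was the lowest control, with a mean of 7.22 over the 16 genes and 1 gene above its group mean, and control 5 was the highest, at 7.39 with 12. In control 1 and control 6, 14 genes were above. After poly(I:C), animals 3 and 5 were high (7.41 and 7.43, with 13 and 14 genes above) and animals 1 and 2 were low (7.28 and 7.26, with 2 and 5 genes above). The remaining animals had 5 (control 2), 6 (control 3 and poly(I:C) 4) and 8 (poly(I:C) 6) of the 16 genes above their group mean. The spread within groups was therefore larger than the difference of 0.017 between the group means. The marker lists differed in their correlation with the synthesis genes. The median r of synthesis genes was 0.33 with 7 striatal markers, 0.24 with microglial, 0.17 with astrocyte and 0.13 with myelin markers. It was 0.10 with endothelial, 0.085 with precursor, -0.025 with cortex and -0.081 with neuronal markers. Over all pairs of the 7384 genes within the range of the synthesis genes the median r was 0.064. Earlier results of these data had put controls 5 and 6 highest in striatal markers, and with both left out the median r among synthesis genes was 0.38. The part of tissue composition in this pattern was not tested.

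The promoters of the sterol genes were also set beside one another. RefSeq promoters of GRCm38.p6, from 250 bases before to 50 after the start site, were matched by symbol for 26 of the 32 members. The synthesis genes Fdft1, Fdps and Sqle and the transport genes Abcg1, Npc1 and Stard4 had no match. The pentamer CCAAT, bound by NF-Y, a factor known to act with the sterol-regulated factors, was searched on both strands. All 13 matched synthesis genes held it in at least 1 of their promoters (13 of 16 promoters). So did 4 of 5 regulators (5 of 10 promoters) and 4 of 8 transport genes (4 of 12 promoters). Of the 14749 genes with a single-gene probe set and a promoter 41.9% held it, and 37.4% of all promoters held it. In all 13 it lay upstream of the start site, where 39.1% of the 14749 genes held it. The upstream match nearest to the start site was 12 to 136 bases away, with a median of 29. Hmgcs1 and Nsdhl held it downstream of the start site as well. The octamer CACCCCAC, the core of a classical sterol regulatory element, was found in 1 member, Hmgcs1, and in 3.55% of the 14749 genes. The 2 motifs do not overlap in the stretches printed here, and a match is a run of letters, not a shown binding site. No test was made of these shares.

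The stretches from 160 to 41 bases upstream of the start site are shown for 5 synthesis genes, chosen after their values had been seen. Idi1, Ebp and Hsd17b7 lay within the group of genes that varied together, and Hmgcs1 holds both motifs. Lss holds the pentamer, and its median r with the other synthesis genes was low. They lie at chr13:119690191-119690310 (plus strand) for Hmgcs1, chr13:8885446-8885565 (plus strand) for Idi1, chrX:8193553-8193672 (minus strand) for Ebp, chr1:169969246-169969365 (minus strand) for Hsd17b7 and chr10:76531445-76531564 (plus strand) for Lss, in GRCm38.p6. Capitals mark CCAAT, here always as its reverse complement ATTGG, and CACCCCAC, and each sequence is read 5′ to 3′ on the strand of its gene.
Hmgcs1: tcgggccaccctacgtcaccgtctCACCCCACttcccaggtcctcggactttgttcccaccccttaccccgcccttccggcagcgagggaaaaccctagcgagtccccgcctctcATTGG
Idi1: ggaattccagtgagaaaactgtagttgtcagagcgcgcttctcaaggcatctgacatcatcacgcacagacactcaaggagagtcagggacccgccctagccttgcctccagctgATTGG
Ebp: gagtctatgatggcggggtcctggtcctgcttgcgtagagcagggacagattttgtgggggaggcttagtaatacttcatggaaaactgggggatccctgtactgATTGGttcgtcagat
Hsd17b7: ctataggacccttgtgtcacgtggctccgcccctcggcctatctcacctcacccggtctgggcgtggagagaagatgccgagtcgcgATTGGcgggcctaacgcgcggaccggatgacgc
Lss: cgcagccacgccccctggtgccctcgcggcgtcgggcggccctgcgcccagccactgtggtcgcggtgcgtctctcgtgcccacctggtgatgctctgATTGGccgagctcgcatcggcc

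The pentamer stands within 100 bases of the start site in each of the 5 stretches, and the octamer of Hmgcs1 lies farther upstream. Idi1, with a median r of 0.63 to the other synthesis genes, and Lss, with a median of 0.072, both carry the pentamer. Whether the motif has a part in the covariation was not tested.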

How the data were processed

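Total RNA of the dissected medial prefrontal cortex was hybridised to Affymetrix Mouse Gene ST strips, 1 array per animal, per the labels' protocols, which name both a 3′ IVT and a whole-transcript kit. The authors deposited 1 log2 expression value for each probe set and array, a scale read from the range and the near-equal array medians. The submitters' processing notes list RMA and Partek 6.6 with no role or order, and the build behind the values was not given in the sources used here. Normalization of the RMA kind makes arrays alike and compresses small differences of dim probe sets. The number of arrays limits the precision.

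Of 35556 probe sets, 21218 carried 1 gene symbol in the platform annotation, 1881 several and 12457 none; 21185 of the first had a RefSeq gene of GRCm38.p6 with the same identifier, used for names. The 23099 with a gene were fitted in limma 3.58.1 under R 4.3.3 (lmFit, eBayes), two-sided, without covariates. Correlations used Python 3.11.15, numpy 2.4.6 and scipy 1.17.1, on values centred within groups, with 100000 permutations within groups or all orders for n = 6; plots used matplotlib 3.10.9. Simulated data with known shifts were used to check the fit.

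The members and lists were chosen with earlier results of these data known. Named with full values were members with an unadjusted p under 0.05, the member with the lowest p in each role, and among further sterol and lipid genes those that passed and the 3 with the lowest p. Alternatives were the replicate number as a block, quantile normalization, median centring, array weights, the brighter probe sets, every row of the table, a trended robust prior, no moderation, the mean of all probe sets of a gene, and leaving out each animal or controls 5 and 6 together. Those of the correlations and of the further genes were added after seeing the data. The samples were fitted as unpaired. Of 6 same-numbered pairs 1 had deviations correlated above 0.1, which cannot show whether the replicate numbers pair the samples.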

Additional observations from a re-analysis of the deposited data

Results flagged for a closer look

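In 64 groups of 6 values (32 sterol genes in each of the 2 treatment groups), 3 held an animal far from the other 5, measured as the gap to its nearest neighbour over the range of the group and set against Dixon's critical value of 0.625. Chance flags about 5% of groups. Mvk was low in poly(I:C) 4, at 6.58 where the others lay between 6.76 and 6.83 (gap over range 0.717). Pmvk was high in poly(I:C) 5, at 6.85 against 6.45 to 6.58 (0.672). Dhcr7 was low in control 4, at 6.81 against 7.01 to 7.09 (0.698).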

How the results depend on the processing

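The count of members that passed was 0 in limma as reported and with the replicate block, in which 536 probe sets passed in all. The count was also 0 with every row tested, without moderation, with the mean of all probe sets and without controls 5 and 6 together. It was 1 after quantile normalization, median centring, array weights (Srebf1 each time) and a trended robust prior (Apoe), and 2 among the brighter probe sets (Srebf1 and Apoe). Regulators gave 1 call in those fits that called Srebf1, and transport genes 1 in those that called Apoe. Leaving out 1 animal gave 2 members without control 4, 1 without poly(I:C) 5 or without poly(I:C) 6, and 0 otherwise. By list it gave 0 to 1 synthesis gene, 0 to 1 regulator and 0 to 1 transport gene. In all, 29 of 32 members passed under none of the 22 alternatives, of which Nr1h3, too dim to be among the brighter probe sets, was run under 21. Over all probe sets 653 passed, 414 with every row tested, 122 without moderation and 230 to 818 without 1 animal. Calls among the further genes numbered 0 to 1 without 1 animal, 0 with the block, after median centring, with every row tested and without moderation, and 2 among the brighter probe sets and without controls 5 and 6 together. The median r of synthesis genes was 0.48 after median centring, 0.35 after quantile normalization and 0.25 without control 4 and poly(I:C) 5.

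The sign of the difference held for 20 members in every alternative run on them, and no reversed value was called. Without controls 5 and 6 together the differences were 0.021 for Fdft1, 0.036 for Sqle, 0.031 for Ebp and for Insig1, -0.0050 for Scap, 0.0088 for Abcg1, 0.023 for Npc1 and -0.0092 for Lrp1. After quantile normalization they were -0.024 for Scap, -0.0027 for Lrp1, -0.0067 for Vldlr and -0.013 for Mylip. Median centring gave -0.0066 for Scap and -0.0026 for Lrp1, and the mean of all probe sets -0.032 for Scap. Leaving out 1 animal gave -0.049 to 0.0082 for Fdft1, -0.056 to 0.026 for Sqle, -0.00034 to 0.076 for Lss, -0.015 to 0.067 for Cyp51, -0.034 to 0.023 for Ebp, -0.063 to 0.0067 for Insig1, -0.012 to 0.023 for Scap, -0.018 to 0.012 for Abcg1, -0.032 to 0.0063 for Npc1, -0.0088 to 0.024 for Lrp1 and -0.00041 to 0.043 for Mylip. The cause of these changes was not tested.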
